A study of Mus musculus with 96 samples.

Results

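The 42 genes described here encode the proteins that copy DNA at the replication fork and rebuild chromatin behind it. The members were selected by name and known role, with earlier results of these data known: DNA polymerase alpha and primase (4 genes), DNA polymerases delta and epsilon (5), the sliding clamp and its loaders (8), replication protein A (3), helicase activation (7), origin recognition (2), primer removal and ligation (6), fork protection (3), and chromatin assembly with DNA methylation (4). All 42 were among the 22384 genes present in the tables of every genotype. Of these genes 12144 had a mean of at least 1 RPKM (a read count divided by transcript length and library size) over 96 libraries and were tested, among them 41 of the 42. The origin gene Orc1, at 0.874 RPKM, was not.

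Messenger RNA was sequenced from back-skin epidermis, separated with dispase, of male C57BL/6 mice aged 8 weeks under a daily light phase of 12 h, with chow always available. For each of 4 genotypes 4 mice were killed every 4 h from lights on (zeitgeber time 0, ZT0) to ZT20, and each mouse gave 1 library. The genotypes differ at Arntl, which encodes the clock activator BMAL1, and in the Cre drivers that remove a stop cassette from it. All but WT are Arntl stopFL/stopFL. BRE mice, whose Syt10-Cre is tg/wt while K14Cre is wt/wt, regain BMAL1 where Syt10-Cre acts, in the brain. EpiRE mice, whose K14Cre is tg/wt while Syt10-Cre is wt/wt, regain it where the keratin 14 promoter acts, in epidermal keratinocytes, and RERE mice, tg/wt for both drivers, in both. WT mice are Arntl wt/wt and also carry both Cre transgenes (K14Cre wt/tg and Syt10-Cre tg/wt). The 3 other genotypes lack BMAL1 in all tissues that no driver reaches. Arntl read 11.4 to 14.6 RPKM (median 12.9) in BRE libraries, 9.56 to 24 (15.1) in EpiRE, 4.77 to 26.5 (16.6) in RERE and 4.69 to 27.4 (14.7) in WT. Which of its exons the cassette silences is not given in the sources used here, so these levels were not used to check the labels.

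Replication begins when origins marked by the origin recognition complex receive the MCM helicase, which CDC45 and the GINS complex switch on. Polymerase alpha and primase then lay short primers, polymerases delta and epsilon extend them on the PCNA clamp, and nucleases and a ligase join the pieces of the lagging strand. Histones and DNA methylation are restored directly behind the fork. Transcription of many of these genes is known to be driven by E2F factors as cells enter S phase, and in mouse epidermis the share of basal keratinocytes in S phase is known to vary over the day, with more at night.

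Estimated depth was 11.3 to 32.4 M (megareads) per library, with a median of 16.5 M. Markers of the labelled tissue were abundant (Krt5 6280 RPKM and Krt10 6890 RPKM on average), while 5 endothelial markers summed to at most 0.407 RPKM in any library. Markers of fibroblasts summed to 1.17 to 21.2 RPKM, of melanocytes to 7.53 to 31.1 RPKM, of Langerhans cells to 38.7 to 159 RPKM and of skeletal muscle to 31.8 to 53.9 RPKM, the last mostly Acta1 (35.9 RPKM on average). The 4 tables may have been normalized separately, so levels are set side by side between genotypes but not tested. Only the daily rhythms were tested, with a mean of its own for each genotype. Rhythms are given by the height of a fitted 24 h cosine from trough to peak, in log2 RPKM ± SE over 24 mice, and were called at an adjusted p below 0.05 (limma F test, adjusted over all 12144 genes by Benjamini and Hochberg). Because the tissue was sequenced in bulk, fewer cells in S phase and less RNA per cell cannot be told apart.

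The fork genes varied together over the day in all 4 genotypes, but at different hours. In BRE epidermis they were high around lights on, with 40 of the 41 tested genes above their own mean at ZT0 and 40 at ZT4, against 3 at ZT12 and 1 at ZT16. In EpiRE they were high around lights off (40 at ZT12 and 40 at ZT16, 0 at ZT4), in RERE at the same times (40 at ZT12 and 39 at ZT16, 2 at ZT4) and in WT through the night (37 at ZT12, 41 at ZT16 and 40 at ZT20, 0 at ZT4). Rhythms were called for 32 of 41 in BRE (17.1% of all tested genes were), 26 in EpiRE (2.87% of all genes), 30 in RERE (16.4% of all genes) and 39 in WT (34.4% of all genes). The median peak of the called fork genes was at ZT0.93 in BRE, ZT12.8 in EpiRE, ZT13.3 in RERE and ZT15.2 in WT.

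Rhythms were of moderate size. The median over the 41 genes was 0.55 log2 in BRE, 0.52 in EpiRE, 0.51 in RERE and 0.76 in WT, beside 0.20, 0.15, 0.18 and 0.23 log2 over all tested genes of the same 4 genotypes. Peaks of called genes spanned 3.04 h in BRE, 2.67 h in EpiRE, 7.04 h in RERE and 5.54 h in WT. Rhythms were called in every genotype for 19 genes: Pola1, Pold1, Pold3, Pole, Pole2, Rfc2, Cdc45, Gins2, Topbp1, Recql4, Fen1, Lig1, Dna2, Rnaseh2b, Timeless, Clspn, Chaf1a, Chaf1b and Uhrf1. Only Rpa3 was called in none. Outside WT these counts depend on single mice and on the model. Leaving out the mice of replicate number 2, 3 or 4 gave 4, 4 and 13 genes in BRE, and leaving out number 1, 2 or 4 gave 0, 0 and 13 in EpiRE (limma; 31, 35 and 38 at an unadjusted p under 0.05). Leaving out number 3 or 4 gave 18 and 13 in RERE. With time as a factor of 6 levels in place of the cosine 18 genes were called in BRE and 6 in EpiRE, and without the single mouse EpiRE ZT0 replicate 4 or EpiRE ZT12 replicate 1 the EpiRE count was 16 or 17. Calls over all tested genes in these settings are not given here, so the losses may not be particular to the fork genes.

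**Figure D1:**
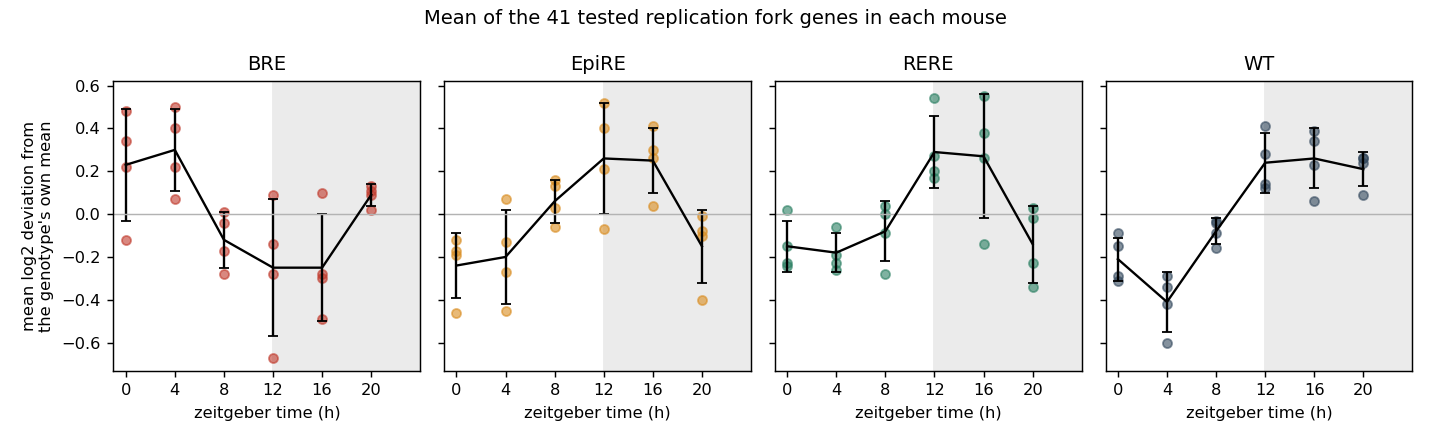
Mean of the 41 tested fork genes in each mouse (points, 4 per time), as log2 deviation from the mean of that genotype, against zeitgeber time, with the group mean and SD in black and the dark phase shaded. BRE mice averaged 0.23 at ZT0 and -0.25 at ZT16, while WT mice averaged -0.21 at ZT0 and 0.26 at ZT16.

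The per-mouse means showed how far single animals departed from their group. In BRE the 4 mice at ZT4 had means of 0.50, 0.07, 0.22 and 0.40 log2 relative to the genotype's own mean, and those at ZT12 had -0.14, -0.67, -0.28 and 0.09. The lowest mouse at ZT4 was thus just below the highest at ZT12. In EpiRE the mice at ZT12 had 0.52, 0.21, 0.40 and -0.07, and those at ZT0 had -0.12, -0.19, -0.17 and -0.46. In RERE the mice at ZT16 had -0.14, 0.55, 0.26 and 0.38, against -0.19, -0.06, -0.23 and -0.26 at ZT4. The EpiRE mice did not overlap between the 2 times, and in RERE only the first mouse at ZT16 fell within the range of ZT4. The RERE mean was highest at ZT12, where the mice had 0.20, 0.17, 0.27 and 0.54 and all lay above those of ZT4. In EpiRE the lowest mouse at ZT12 lay below the highest at ZT4 (0.07). In WT the mice at ZT16 had 0.06, 0.23, 0.34 and 0.39 and those at ZT4 had -0.60, -0.29, -0.34 and -0.42, with no overlap.

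**Figure D2:**
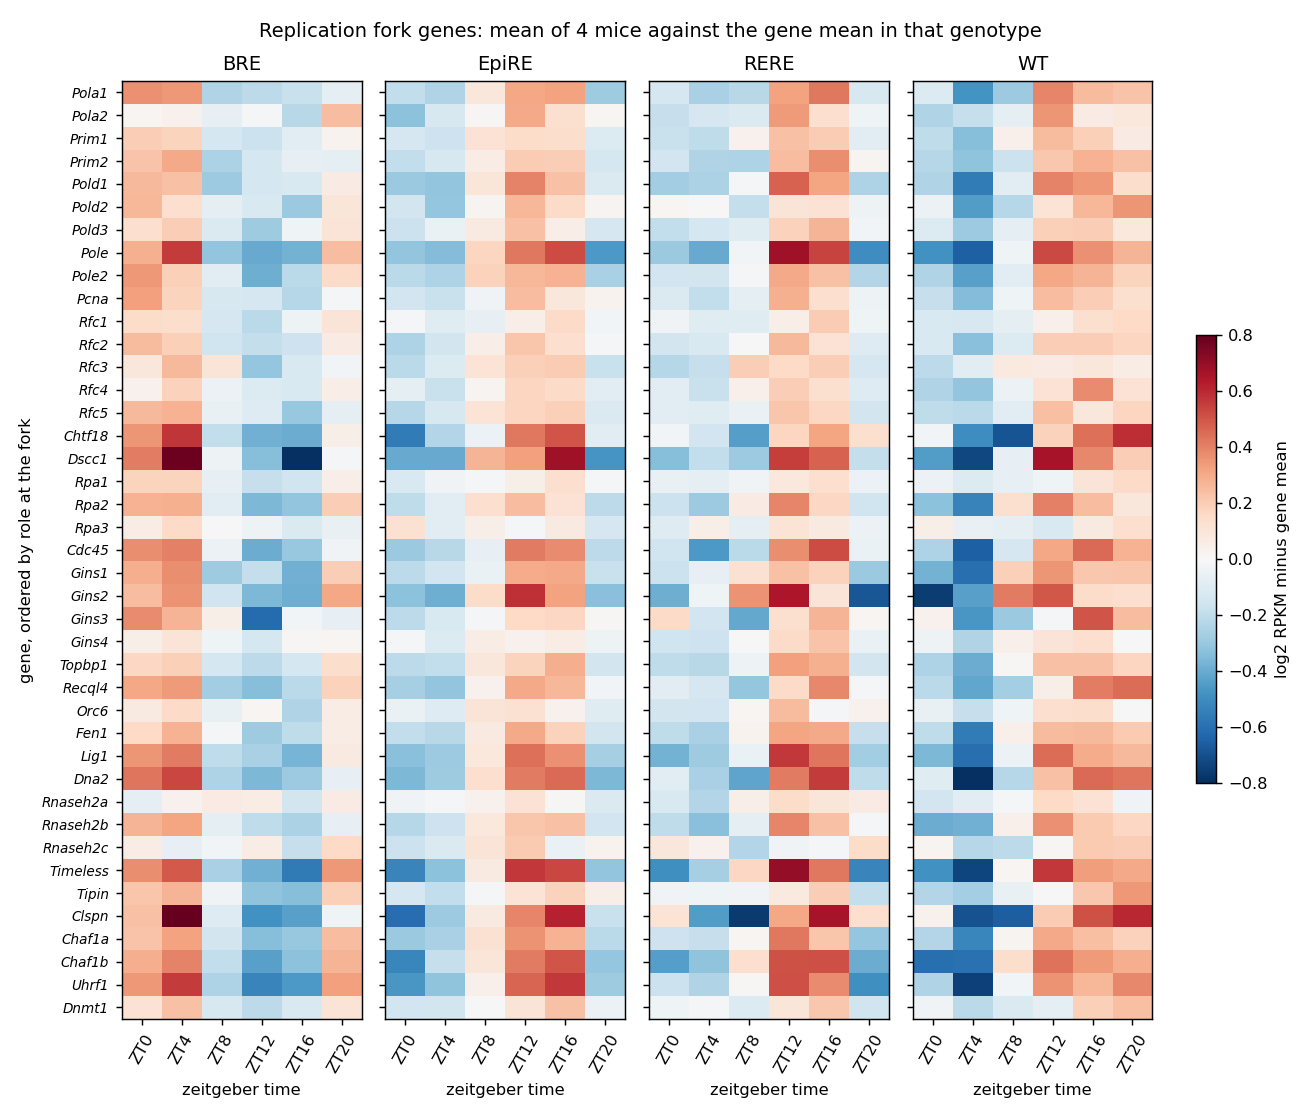
Mean log2 RPKM of 4 mice for each of the 41 tested genes (down, ordered by role) at 6 times (across) in BRE, EpiRE, RERE and WT, minus the mean of that gene in that genotype. Red columns stand at ZT0 and ZT4 in BRE, at ZT12 and ZT16 in EpiRE and RERE, and from ZT12 to ZT20 in WT.

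The genes of polymerase alpha and primase, the complex that starts each new strand, were called for 2 of 4 in BRE, 3 in EpiRE, 4 in RERE and 4 in WT. Pola1, the catalytic subunit of polymerase alpha (ENSMUSG00000006678, mm10 chromosome X, 93304767 to 93632155, minus strand), had 3.15, 3.75, 3.95 and 4.32 RPKM in BRE mice at ZT0 and 2.26, 2.18, 2.74 and 2.79 RPKM at ZT8, the highest and lowest times of that genotype. In EpiRE it had 4.46, 4.30, 3.79 and 3.94 RPKM at ZT16 and 3.03, 2.79, 2.13 and 2.98 RPKM at ZT20. In WT it had 4.46, 4.33, 4.13 and 4.38 RPKM at ZT12 and 2.19, 2.56, 2.48 and 2.24 RPKM at ZT4. The mice of the high and low time did not overlap in any of these genotypes, nor in RERE. Fitted rhythms of Pola1 were 0.65 ± 0.12 log2 with a peak at ZT1.27 in BRE (adjusted p = 0.00444), 0.66 ± 0.13 at ZT12.6 in EpiRE (adjusted p = 0.0219), 0.67 ± 0.13 at ZT14.8 in RERE (adjusted p = 0.0045) and 0.83 ± 0.10 at ZT16 in WT (adjusted p = 6.81e-06). Prim1, the primase that makes the RNA primer, was the most abundant of the 4 with a mean of 19.5 RPKM, and its EpiRE rhythm of 0.37 ± 0.09 log2 just missed the threshold (adjusted p = 0.0506). Pola2, the regulatory subunit, was called in EpiRE, RERE and WT but had 0.21 ± 0.14 log2 in BRE (adjusted p = 0.515).

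All 5 genes of polymerases delta and epsilon, which copy the lagging and the leading strand, were called in BRE, EpiRE and WT, and 4 of 5 in RERE. Pole, the catalytic subunit of polymerase epsilon (chromosome 5, 110286306 to 110337474, plus strand), had the largest rhythm of the group. It had 3.63, 2.19, 3.35 and 3.85 RPKM in BRE mice at ZT4, against 2.15, 1.04, 1.51 and 2.11 RPKM at ZT12. RERE mice had 3.09, 3.30, 3.38 and 4.84 RPKM at ZT12, against 1.77, 2.18, 1.1 and 1.51 RPKM at ZT20, and WT mice 3.88, 4.02, 3.15 and 4.68 RPKM at ZT12, against 1.36, 2.16, 2.09 and 1.42 RPKM at ZT4. Again every mouse of the high time exceeded every mouse of the low time. The rhythm was 1.97-fold between peak and trough in BRE (ZT0.845), 2.00-fold in EpiRE (ZT12.5), 2.22-fold in RERE (ZT12.9) and 2.28-fold in WT (ZT14.7). Pold2, the accessory subunit of polymerase delta, went against its group in RERE: it had 9.92, 15.9, 11.8 and 13.8 RPKM at ZT16 and 9.16, 8.77, 11.3 and 12.1 RPKM at ZT8, which overlap, and its rhythm of 0.16 ± 0.11 log2 was not called (adjusted p = 0.535). In WT it had 18.5, 17.9, 17.1 and 13.3 RPKM at ZT20 and 8.95, 10.3, 9.69 and 9.23 RPKM at ZT4 (0.76 ± 0.10 log2, adjusted p = 1.77e-05).

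Among the sliding clamp and its loaders, 7 of 8 genes were called in BRE, 4 in EpiRE, 5 in RERE and 7 in WT. Pcna, the clamp that holds polymerases on DNA (ENSMUSG00000027342, chromosome 2, 132249162 to 132253314, minus strand), was the most abundant of all 42 genes at 82.4 RPKM. BRE mice had 74.7, 102, 96 and 115 RPKM at ZT0, against 77.1, 58.1, 58.3 and 69.2 RPKM at ZT16. EpiRE mice had 112, 86.1, 118 and 79.0 RPKM at ZT12, against 64.0, 65.4, 78.8 and 83.8 RPKM at ZT4. Those 2 genotypes had 1 mouse of the high time within the range of the low one. RERE mice had 90.7, 94.0, 92.2 and 111 RPKM at ZT12 and 70.8, 73.4, 70.2 and 63.0 RPKM at ZT4, and WT mice 106, 94.8, 101 and 113 RPKM at ZT12 and 76.1, 66.9, 62.8 and 69.6 RPKM at ZT4, with no overlap. Its rhythm was called in BRE (0.51 ± 0.11 log2, ZT1.24, adjusted p = 0.0115), RERE (0.42 ± 0.11, ZT14, adjusted p = 0.026) and WT (0.58 ± 0.06, ZT15, adjusted p = 1.21e-06), and missed the threshold in EpiRE (0.39 ± 0.11, adjusted p = 0.0983).

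Dscc1 and Chtf18, which belong to the alternative loader that acts in sister chromatid cohesion, were scarce (1.71 and 1.77 RPKM) and had the largest rhythms of the group. Dscc1 had 3.18, 2.09, 2.17 and 2.39 RPKM in BRE mice at ZT4, against 1.19, 0.635, 0.752 and 0.762 RPKM at ZT16, which is the largest BRE rhythm of all 41 genes (1.37 ± 0.21 log2, 2.58-fold, adjusted p = 0.00125). WT mice had 2.38, 2.91, 2.61 and 3.39 RPKM at ZT12, against 1.23, 1.25, 1.03 and 0.833 RPKM at ZT4 (1.29 ± 0.16 log2). Both groups were fully separated. In RERE neither gene was called (Dscc1 0.90 ± 0.26 log2, adjusted p = 0.0541; Chtf18 0.61 ± 0.19 log2, adjusted p = 0.0725). The subunits of the main loader, Rfc1 to Rfc5, varied less, between 0.26 and 0.64 log2 in WT. Rfc3 was the exception in WT, with 0.26 ± 0.09 log2 (adjusted p = 0.0701), although it was called in BRE, EpiRE and RERE. Rfc4 was called in RERE and WT but not in BRE (0.26 ± 0.13 log2, adjusted p = 0.288) or EpiRE (0.34 ± 0.09 log2, adjusted p = 0.0766).

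**Figure D3:**
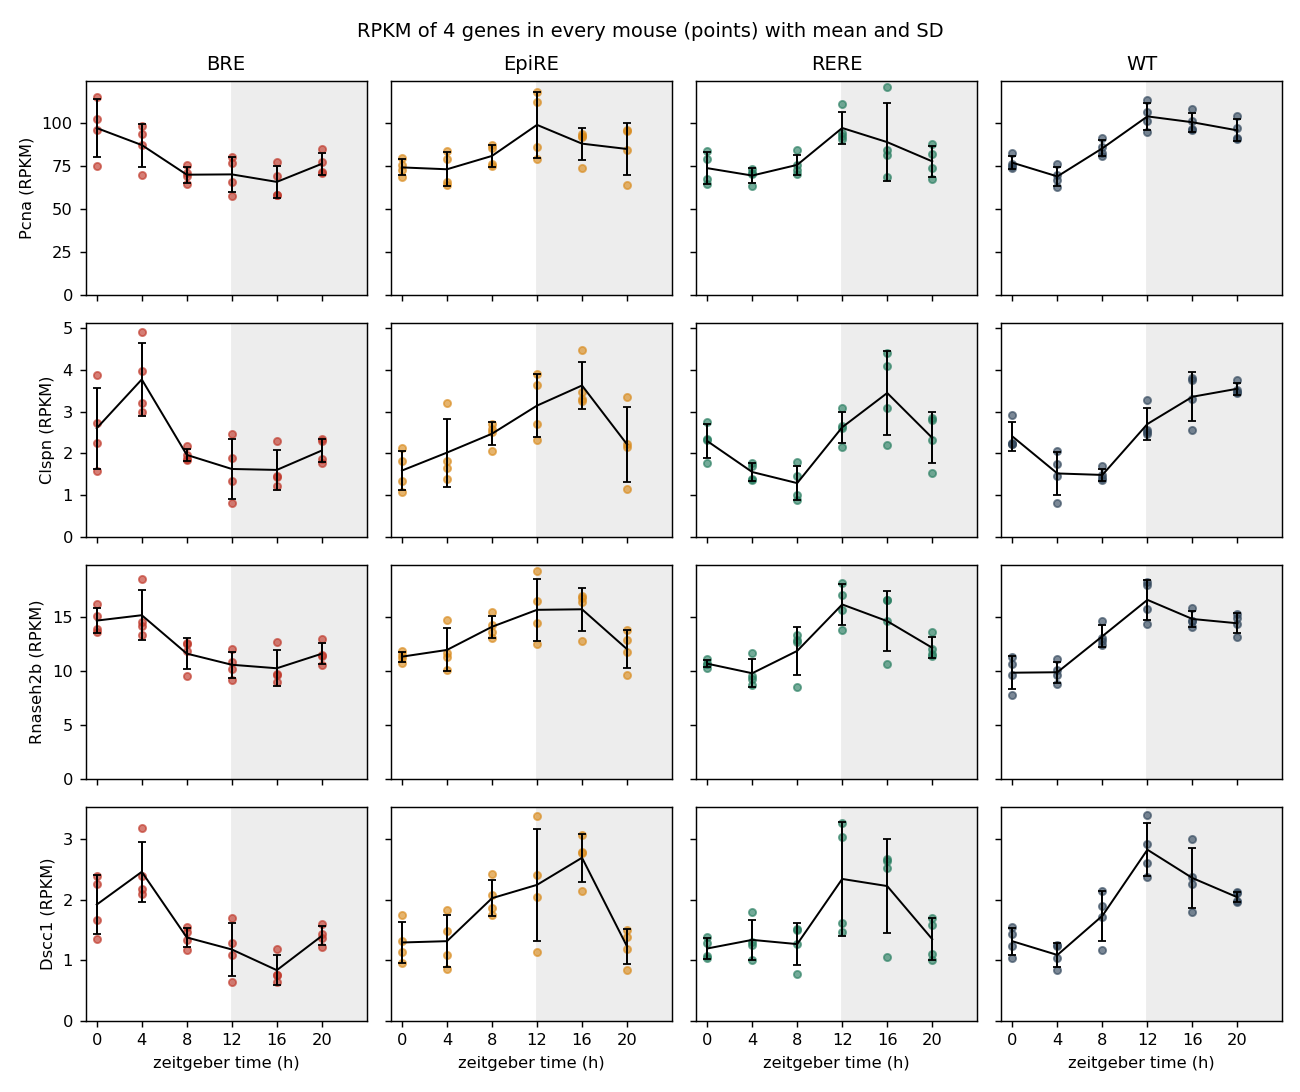
RPKM of Pcna, Clspn, Rnaseh2b and Dscc1 (rows) in every mouse (points) against zeitgeber time in BRE, EpiRE, RERE and WT (columns), with mean and SD in black and the dark phase shaded. The highest BRE mean is at ZT0 for Pcna and at ZT4 for the other 3 genes, and the highest WT mean is at ZT20 for Clspn and at ZT12 for the other 3.

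Replication protein A, which coats single-stranded DNA, had a median rhythm of 0.42 log2 in BRE, 0.19 in EpiRE, 0.20 in RERE and 0.25 in WT. Of its 3 genes 2 were called in BRE, 0 in EpiRE (limma; Rpa1 and Rpa2 had an unadjusted p of 0.0308 and 0.00417), 1 in RERE and 2 in WT. Rpa2, the middle subunit, had 9.02, 10.6, 9.63 and 11.5 RPKM in WT mice at ZT12 and 5.33, 5.97, 5.16 and 4.76 RPKM at ZT4 (0.88 ± 0.12 log2, adjusted p = 3.68e-05). Its BRE rhythm was 0.75 ± 0.16 log2 with a peak at ZT0.949 (adjusted p = 0.0124). Rpa1, the large subunit, varied by 0.42 ± 0.07 log2 in BRE (adjusted p = 0.00213) and by 0.25 ± 0.05 log2 in WT (adjusted p = 0.00158). Rpa3, the small subunit, was the only gene called in no genotype and had the smallest rhythm in EpiRE, RERE and WT. It had 14.9, 14.9, 14.4 and 13.5 RPKM in BRE mice at ZT4 and 12.9, 14.5, 11.1 and 9.99 RPKM at ZT16, and 16.6, 14.3, 14.4 and 13.9 RPKM in WT mice at ZT20 and 11.2, 13.1, 12.0 and 13.3 RPKM at ZT12. The BRE mice overlapped between the 2 times and the WT mice did not. Fitted rhythms of Rpa3 were 0.23 ± 0.11 log2 in BRE (adjusted p = 0.278), 0.03 ± 0.10 in EpiRE (adjusted p = 0.996), 0.14 ± 0.10 in RERE (adjusted p = 0.58) and 0.24 ± 0.08 in WT (adjusted p = 0.0648).

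Of the 7 genes that switch on the helicase, 5 were called in BRE, 4 in EpiRE, 5 in RERE and 7 in WT. Gins2, a subunit of the GINS complex (chromosome 8, 120578633 to 120589304, minus strand), had the earliest peak of the fork genes in RERE and in WT. RERE mice had 10.6, 13.9, 15.3 and 17.2 RPKM at ZT12 and 7.27, 6.77, 4.16 and 4.68 RPKM at ZT20, and WT mice 15, 16.6, 15.4 and 14.3 RPKM at ZT12 and 6.27, 7.08, 5.48 and 6.85 RPKM at ZT0. Its fitted peak was ZT0.752 in BRE, ZT12.5 in EpiRE, ZT10.3 in RERE and ZT12.6 in WT, with rhythms of 0.82 ± 0.20, 1.02 ± 0.23, 1.21 ± 0.19 and 1.14 ± 0.15 log2 in that order. The other GINS subunits were called in fewer genotypes, and differences between subunits were not tested. Gins4 was called in RERE (0.41 ± 0.07 log2) and WT (0.31 ± 0.08 log2) but had 0.18 ± 0.09 log2 in BRE (adjusted p = 0.352) and 0.13 ± 0.08 log2 in EpiRE (adjusted p = 0.596). Gins3 was called in WT alone, where mice had 3.19, 2.72, 3.38 and 3.09 RPKM at ZT16 and 1.03, 2.02, 1.79 and 1.64 RPKM at ZT4, and Gins1 in BRE and WT. Topbp1, a scaffold that recruits the activators, was called in all 4 genotypes with rhythms of 0.45 to 0.66 log2, and so was Recql4, a helicase needed for the same step, with 0.52 to 0.91 log2.

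Origin recognition was represented by 2 genes. Orc6, the smallest subunit of the complex, had 12.1, 13.4, 13.4 and 14.9 RPKM in WT mice at ZT16 and 10.9, 9.91, 10.4 and 11.8 RPKM at ZT4. It was called in RERE (0.32 ± 0.09 log2, ZT13.1, adjusted p = 0.0304) and WT (0.30 ± 0.06 log2, ZT14.9, adjusted p = 0.00319), and had 0.26 ± 0.09 log2 in BRE (adjusted p = 0.106) and 0.23 ± 0.07 log2 in EpiRE (adjusted p = 0.111). Orc1, the large ATPase subunit, fell below the level required for a test, so its values are a description. BRE mice had 1.3, 0.275, 0.896 and 1.41 RPKM at ZT4, and 0.768, 0.353, 0.331 and 0.614 RPKM at ZT12. In EpiRE it averaged 1.21 ± 0.508 RPKM at ZT12 and 0.558 ± 0.22 RPKM at ZT4, in RERE 1.48 ± 0.494 and 0.549 ± 0.0573 RPKM, and in WT 1.47 ± 0.374 and 0.363 ± 0.118 RPKM at the same times (SD, n = 4 each). The BRE mice overlapped between the 2 times, and so did the EpiRE mice (lowest 0.511 RPKM at ZT12, highest 0.794 RPKM at ZT4). In WT the lowest mouse at ZT12 (1.01 RPKM) was above the highest at ZT4 (0.495 RPKM).

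Primer removal and ligation genes were called for 4 of 6 in BRE, 4 in EpiRE, 5 in RERE and 6 in WT. Dna2, a nuclease and helicase that trims long flaps, had the largest WT rhythm of the group, with 1.23, 1.6, 1.95 and 1.61 RPKM at ZT16 and 0.421, 0.913, 0.665 and 0.758 RPKM at ZT4 (1.18 ± 0.18 log2, ZT16.6, adjusted p = 0.000127). Its rhythm was 0.94 ± 0.24 log2 in BRE (ZT1.57), 0.94 ± 0.20 in EpiRE (ZT12.6) and 0.80 ± 0.20 in RERE (ZT15.2). The 3 subunits of RNase H2, the enzyme that cuts RNA out of DNA, were called in different genotypes, and the differences between them were not tested. Rnaseh2b, a structural subunit, was called in all genotypes: BRE mice had 18.6, 14.6, 14.2 and 13.4 RPKM at ZT4 and 12.7, 9.01, 9.64 and 9.74 RPKM at ZT16, and WT mice 14.4, 18.0, 15.8 and 18.3 RPKM at ZT12 and 10.7, 11.3, 7.82 and 9.62 RPKM at ZT0. Rnaseh2a, the catalytic subunit, was called in RERE and WT (0.34 ± 0.09 and 0.30 ± 0.07 log2) but not in BRE (0.11 ± 0.09 log2, adjusted p = 0.593) or EpiRE (0.17 ± 0.09 log2, adjusted p = 0.457). Rnaseh2c, the other structural subunit and the most abundant gene of the group at 17.15 RPKM, was called in WT alone (0.49 ± 0.10 log2, ZT17.9, adjusted p = 0.0022). WT mice had 21.7, 19.8, 19.6 and 19.6 RPKM of it at ZT16 and 12.8, 13.9, 16 and 17.1 RPKM at ZT4, with no overlap.

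The fork protection genes had the largest rhythms of any role by their median, 1.09 log2 in BRE, 1.12 in EpiRE, 1.17 in RERE and 1.24 in WT. Clspn, which encodes claspin, a link between the fork and the replication checkpoint (ENSMUSG00000042489, chromosome 4, 126556935 to 126593903, plus strand), had the largest WT rhythm of all 41 genes. BRE mice had 4.92, 2.99, 3.21 and 3.97 RPKM at ZT4, against 2.30, 1.21, 1.44 and 1.47 RPKM at ZT16. EpiRE mice had 4.47, 3.47, 3.26 and 3.31 RPKM at ZT16, against 1.35, 1.81, 2.12 and 1.08 RPKM at ZT0. RERE mice had 2.19, 4.41, 3.09 and 4.10 RPKM at ZT16, against 0.896, 1.01, 1.45 and 1.80 RPKM at ZT8, and WT mice 3.77, 3.47, 3.45 and 3.51 RPKM at ZT20, against 1.40, 1.69, 1.37 and 1.48 RPKM at ZT8. No high and low group overlapped. The fitted rhythm was 1.14 ± 0.24 log2 at ZT2.45 in BRE (adjusted p = 0.0111), 1.12 ± 0.23 at ZT13.3 in EpiRE (adjusted p = 0.0248), 1.17 ± 0.23 at ZT17.3 in RERE (adjusted p = 0.00411) and 1.43 ± 0.16 at ZT17.8 in WT (adjusted p = 5.23e-06). Timeless, named for a fly clock gene but a fork component in mammals, peaked at ZT0.911, ZT12.9, ZT12.0 and ZT14.6 in BRE, EpiRE, RERE and WT, and its rhythms of 1.09 to 1.25 log2 were called in all of them. Its partner Tipin, at 10.1 RPKM the most abundant of the group, was called in BRE (0.68 ± 0.14 log2) and WT (0.55 ± 0.11 log2), and had 0.37 ± 0.13 log2 in EpiRE (adjusted p = 0.213) and 0.20 ± 0.13 log2 in RERE (adjusted p = 0.487).

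All 4 genes of chromatin assembly and DNA methylation were called in BRE, EpiRE and WT, and 3 in RERE. Chaf1b, a subunit of the histone chaperone CAF-1, had 3.98, 2.71, 3.05 and 3.87 RPKM in BRE mice at ZT4 and 2.31, 1.45, 1.68 and 2.27 RPKM at ZT12. WT mice had 4.23, 4.37, 4.33 and 5.04 RPKM at ZT12 and 2.17, 2.40, 2.05 and 2.12 RPKM at ZT0. The groups did not overlap, and the rhythm was 0.89 ± 0.18 log2 in BRE (ZT0.623), 1.00 ± 0.16 in EpiRE (ZT12.6), 1.11 ± 0.17 in RERE (ZT12.6) and 1.14 ± 0.13 in WT (ZT14.2). Dnmt1, the maintenance DNA methyltransferase, was the second most abundant of the 42 genes at 22.5 RPKM and had smaller rhythms. It varied by 0.42 ± 0.09 log2 in BRE, 0.37 ± 0.08 in EpiRE and 0.44 ± 0.07 in WT, where its peak at ZT18.1 was the latest of the called genes, and by 0.21 ± 0.10 log2 in RERE, which was not called (adjusted p = 0.284). Uhrf1, which brings Dnmt1 to newly copied DNA, varied by 1.15 ± 0.23 log2 in BRE, 1.08 ± 0.21 in EpiRE, 0.83 ± 0.21 in RERE and 1.02 ± 0.17 in WT, all called.

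**Figure D4:**
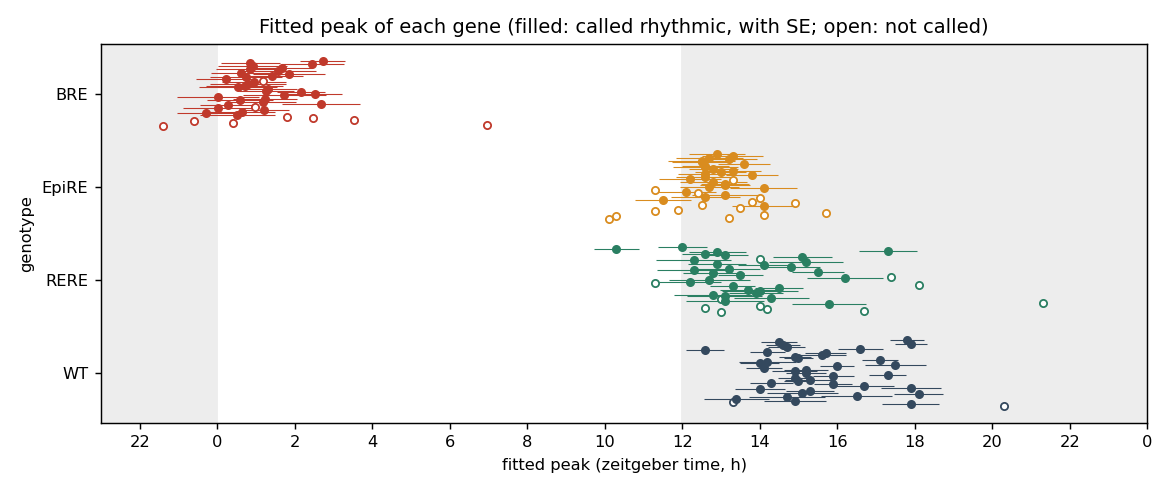
Fitted peak time of each of the 41 tested genes in each genotype (rows BRE, EpiRE, RERE and WT), with genes of a row ordered upwards by the size of their rhythm. Filled points are called and carry the SE of the peak, open points are not called, and shading marks the dark phase. Called BRE genes lie near ZT0.93 at their median, and called WT genes near ZT15.2.

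The promoters of these genes are shown because the genes vary together and many are known E2F targets. Of the 42 genes 32 have an entry in the RefSeq promoter table (GRCm38.p6, the assembly of mm10), which holds 250 bases before to 50 after each start. The E2F motif was searched as the letters TTTCCCGC, TTTCGCGC, TTTGCCGC and TTTGGCGC on both strands. It was found in 12 of 39 promoters of fork genes (30.8%), belonging to Pola1, Pold1, Pold3, Pole2, Rfc3, Gins3, Topbp1, Orc1, Lig1, Clspn, Uhrf1 and Dnmt1, and in 2.26% of all 32851 promoters. The CCAAT box was found in 53.8% of fork gene promoters and 37.4% of all, the E-box CACGTG bound by clock factors in 15.4% and 7.15%, and the CHR element TTTGAA of mitotic genes in 15.4% and 17.9%. All were searched on both strands, no letter string contains another, and a match is a description of sequence only. Windows of 30 bases round the E2F match of genes described here read as follows, in the direction of the gene, with the match in capitals (the 4 letter strings or their reverse complement).
Pola1, chrX:93632275-93632304, minus strand: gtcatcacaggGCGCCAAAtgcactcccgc
Rfc3, chr5:151651190-151651219, minus strand: ctttcgcgctcGCGGGAAAactctactgtc
Gins3, chr8:95633507-95633536, plus strand: gcgagtgcggcGCGGGAAAgcgagtttgaa
Topbp1, chr9:103305187-103305216, plus strand: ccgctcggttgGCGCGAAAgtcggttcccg
Clspn, chr4:126556990-126557019, plus strand: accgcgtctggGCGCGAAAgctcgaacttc
Dnmt1, chr9:20952824-20952853, minus strand: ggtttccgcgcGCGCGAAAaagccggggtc

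The match in Clspn begins 21 bases after the start, and that in Topbp1 lies upstream of it. The Rfc3 window also holds a second match, TTTCGCGC, in lower case on its left. Dnmt1 has 3 promoters in the table, and that shown has a further match 33 bases after its start. The 250 bases before the start of 3 genes are given in full: Clspn, with the largest WT rhythm, Rpa3, with the smallest, and Pcna, with the highest level. Capitals mark CCAAT boxes, which here all read ATTGG and so lie on the opposite strand.
Clspn, chr4:126556730-126556979, plus strand: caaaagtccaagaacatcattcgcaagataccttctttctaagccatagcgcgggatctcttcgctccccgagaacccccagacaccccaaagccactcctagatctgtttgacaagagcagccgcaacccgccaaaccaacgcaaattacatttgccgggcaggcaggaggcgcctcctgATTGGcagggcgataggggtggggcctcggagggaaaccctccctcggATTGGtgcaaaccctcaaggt
Rpa3, chr6:8259142-8259391, minus strand: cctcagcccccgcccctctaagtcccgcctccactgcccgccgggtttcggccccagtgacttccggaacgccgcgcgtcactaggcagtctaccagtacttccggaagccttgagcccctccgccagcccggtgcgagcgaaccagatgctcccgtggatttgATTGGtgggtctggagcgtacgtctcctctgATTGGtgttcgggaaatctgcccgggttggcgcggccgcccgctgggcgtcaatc
Pcna, chr2:132253181-132253430, minus strand: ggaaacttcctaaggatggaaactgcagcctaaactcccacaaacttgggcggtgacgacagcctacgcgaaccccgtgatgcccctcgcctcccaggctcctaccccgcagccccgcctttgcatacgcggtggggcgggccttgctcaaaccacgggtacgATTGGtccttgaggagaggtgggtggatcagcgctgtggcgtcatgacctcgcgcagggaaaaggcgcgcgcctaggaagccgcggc
Clspn and Rpa3 each hold 2 such boxes in these 250 bases and Pcna holds 1, and none of the other motifs searched is in them. Dscc1, with the largest BRE rhythm, is named only.

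In BRE the fork genes with a called rhythm (32 of 41, and 4 without replicate number 2 or 3) peaked at a median of ZT0.93, against ZT15.2 for those called in WT. The difference of the 2 rhythms was called for 38 of 41 genes (20.2% of all tested genes; limma F test of the genotype by cosine and sine terms, 48 mice). The smallest adjusted p values were those of Rnaseh2b (2.43e-09) and Dscc1 (2.81e-09). Their peaks lay at ZT2.16 and ZT2.72 in BRE, against ZT14.1 and ZT14.5 in WT. Over the 41 genes the peak came a median of 9.44 h later in BRE than in WT on a 24 h scale, with quartiles of 8.69 and 10.5 h (4.37 h over all tested genes). The shift was smallest among the called genes for Dnmt1 (6.51 h, 95% interval 4.37 to 8.64 h). As to size, the rhythm was smaller in BRE for 34 genes and larger for 7, with a median difference of -0.15 log2 (BRE minus WT). The 95% interval of that difference left out 0 for 4 genes. Over all 12144 genes the rhythm was smaller in BRE for 7109, with a median difference of -0.03 log2. The interval left out 0 for 1369 of them. The genes without a called difference were Rpa3 (adjusted p = 0.0996), Rnaseh2a (adjusted p = 0.0684) and Rnaseh2c (adjusted p = 0.0689). Between 36 and 39 genes were called when any 1 replicate number was left out.

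Some markers of cell type were also called in BRE, where 17.1% of all tested genes were. Whether these short lists differ from that share was not tested. The sum of 7 T cell markers averaged 79.0, 74.8, 59.7, 67.5, 57.2 and 79.1 RPKM from ZT0 to ZT20, and 1 of 5 tested members was called, Cd3d with a peak at ZT23.3. In WT the same sum was 68.8, 62.7, 37.4, 39.1, 49.2 and 73.5 RPKM, lowest at ZT8 and ZT12. Single BRE libraries ranged from 42.2 to 93.4 RPKM and WT libraries from 30.4 to 83.1 RPKM. Of 8 basal keratinocyte markers 3 were called in BRE (Col17a1, Itga6 and Itgb1), with peaks between ZT19.7 and ZT21.0, and of 7 suprabasal markers 2 were (Ivl and Krt10), between ZT10.6 and ZT14.1. The basal markers summed to 10700 to 16700 RPKM in BRE libraries and 11400 to 19000 RPKM in WT libraries. From ZT0 to ZT20 the basal sum averaged 15500, 15100, 12900, 13100, 13700 and 14400 RPKM in BRE. The WT averages were 13400, 13900, 14800, 15700, 15000 and 15500 RPKM. The suprabasal markers summed to 8770 to 18800 RPKM in BRE and 6560 to 16500 RPKM in WT. From ZT0 to ZT20 they averaged 11100, 12300, 15300, 14000, 13000 and 11500 RPKM in BRE. The WT averages were 13300, 10400, 11700, 7370, 12600 and 10000 RPKM. The rhythm differed in BRE against WT for 3 of 8 basal, 4 of 7 suprabasal and 1 of 5 T cell markers. Over all tested genes the share was 20.2%. In WT, where 34.4% of all tested genes were called, 1 basal marker (Col17a1), 1 suprabasal marker (Ivl) and 1 T cell marker (Thy1) were. In EpiRE (2.87% of all tested genes called) 0 of these 20 tested genes were called and 0 had an unadjusted p under 0.05 (limma). Thy1 was also called in RERE, and Hoxc13 of the hair matrix in WT. Markers of Langerhans cells, melanocytes, fibroblasts and skeletal muscle had 0 calls in every genotype, with at most 1 gene of a list at an unadjusted p under 0.05 (limma). The part of cell type in the rhythms of the fork genes was not tested.

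In EpiRE most fork genes had an earlier fitted peak than in WT. The estimated peak was earlier in EpiRE for all 41 genes, with the whole 95% interval earlier for 26, and the median difference was -2.4 h (EpiRE minus WT). For Rpa3 the sign means nothing, since its interval runs from -33.5 to 13.1 h. Over all 12144 genes the peak was earlier in EpiRE for 7000 and later for 5009, with a median of -1.13 h. Among these the whole interval was earlier for 2022 and later for 1081. The difference of rhythms was called for 10 of 41 genes (8.51% of all tested genes): Pola1, Prim2, Pold2, Pold3, Chtf18, Recql4, Dna2, Rnaseh2c, Clspn and Dnmt1. Peak times of these were 3.11 to 6.03 h apart. Chtf18 peaked at ZT13.6 in EpiRE, against ZT17.9 in WT (-4.35 h, 95% interval -5.94 to -2.75 h, adjusted p = 0.00147). Clspn peaked at ZT13.3 in EpiRE, against ZT17.8 in WT (-4.43 h, interval -6.24 to -2.61 h, adjusted p = 0.00385). The interval included 0 for Gins2, whose peak difference was -0.0824 h (interval -2.09 to 1.93 h), and for Pcna, at -1.02 h (interval -3.32 to 1.27 h). Rhythms were smaller in EpiRE for 38 genes, by a median difference of -0.18 log2, with an interval that left out 0 for 3. Over all 12144 genes they were smaller in EpiRE for 8810, by a median difference of -0.08 log2, with an interval that left out 0 for 1707. Calls numbered 6 after median-of-ratios rescaling, 4 with time as a factor, and 2 and 0 without replicate number 2 or 3 (limma; 20 and 8 at an unadjusted p under 0.05). Leaving out the single WT mouse ZT20 replicate 2 left 6. Without replicate number 3 the median peak of the 41 genes was ZT13.7 in EpiRE and ZT14.9 in WT. These lie nearer each other than the ZT12.8 and ZT15.2 of all mice.

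**Figure D5:**
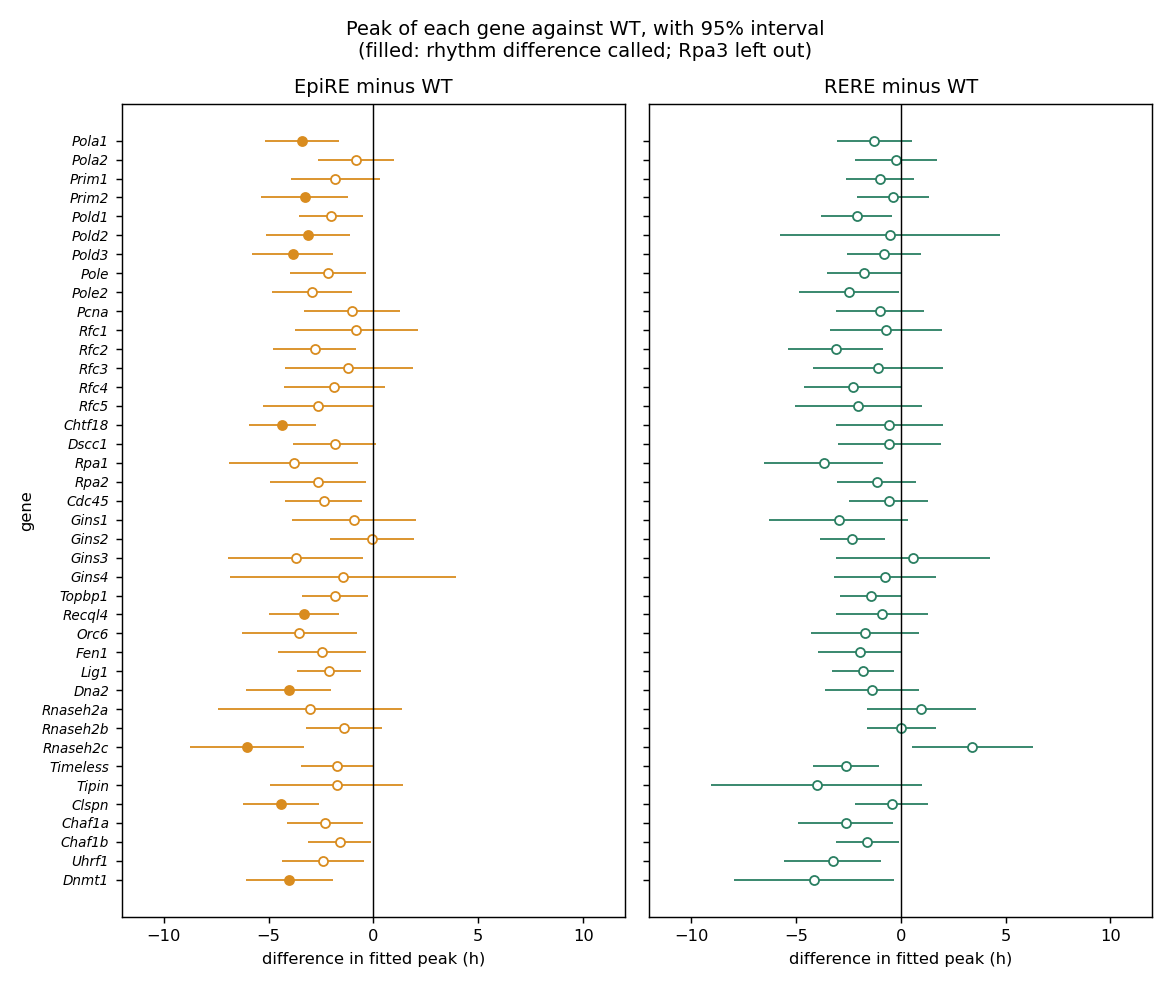
Difference in fitted peak for each gene, EpiRE minus WT (left) and RERE minus WT (right), in hours with its 95% interval. Filled points mark a called rhythm difference, and Rpa3 is left out because its peak in EpiRE is not defined to within hours. All EpiRE points lie below 0 h, with a median of -2.4 h.

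In RERE the difference from WT was called for 0 of 41 genes (0.453% of all tested genes; limma, 13 at an unadjusted p under 0.05). The peak was earlier in RERE for 37 genes and later for 4, with a median of -1.39 h (RERE minus WT) and the whole interval earlier for 13. All 12144 genes leaned the other way, with 4210 earlier and 7770 later in RERE, a median of 1.28 h, and the whole interval earlier for 524 and later for 1702. The smallest adjusted p values were those of Pold2 (0.0812) and Timeless (0.179). Pold2 had 0.16 log2 in RERE, against 0.76 log2 in WT (difference -0.60, 95% interval -0.89 to -0.30), and Timeless peaked at ZT12.0 in RERE, against ZT14.6 in WT (interval -4.17 to -1.06 h). The count was 1 without the single mouse WT ZT16 replicate 1, WT ZT20 replicate 4, RERE ZT8 replicate 2 or RERE ZT16 replicate 2. The absence of calls does not show that the 2 genotypes act alike. The interval of the peak difference was -2.16 to 1.32 h for Clspn and -7.96 to -0.313 h for Dnmt1.

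Rhythms differed between RERE and BRE for 37 of 41 genes (4.79% of all tested genes), with peaks a median of 10.7 h apart, and between EpiRE and BRE for 37 of 41 (13.9% of all genes), a median of 11.2 h apart. Rnaseh2b had the smallest adjusted p of RERE against BRE (4.71e-07), with peaks at ZT14.1 in RERE and ZT2.16 in BRE, followed by Topbp1 (6.02e-07). For EpiRE against BRE the smallest adjusted p, 2.38e-05, was that of Chaf1b, Rnaseh2b and Topbp1 alike. The RERE against BRE count was 24 without replicate number 3. Gins3 had no called difference for RERE against BRE (adjusted p = 0.15), and Gins4 none for EpiRE against BRE (adjusted p = 0.2). Between RERE and EpiRE the difference was called for 1 of 41 genes (4.04% of all genes), Rnaseh2c. Its mice had 20.9, 18.5, 19.4 and 15.6 RPKM at ZT20 and 13.4, 17.6, 14.3 and 12.0 RPKM at ZT8 in RERE, and 20.9, 22.7, 21.9 and 17.0 RPKM at ZT12 and 16.4, 16.2, 15.4 and 15 RPKM at ZT0 in EpiRE. The fitted peaks of Rnaseh2c, ZT21.3 in RERE and ZT11.9 in EpiRE, were 9.44 h apart (adjusted p = 0.0198), although neither rhythm was called within its own genotype (adjusted p = 0.0769 and 0.111). Clspn came next, with ZT17.3 in RERE and ZT13.3 in EpiRE (interval of the difference 1.81 to 6.2 h, adjusted p = 0.078). The Rnaseh2c call was lost with time as a factor of 6 levels (limma; 2 fork genes at an unadjusted p under 0.05) and without replicate number 1, 3 or 4 (6, 6 and 7), and 2 genes were called without the single mouse RERE ZT20 replicate 3 or EpiRE ZT20 replicate 4. The 6 comparisons of genotypes share mice, so they are not independent of each other.

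Other genes of the same process showed the timing in part. Of 15 tested genes of the MCM helicase and its loading, 9 were called in BRE (median rhythm 0.63 log2), 8 in EpiRE (0.55), 11 in RERE (0.77) and 12 in WT (0.73). Mcm7, a helicase subunit, peaked at ZT1.18 in BRE, ZT13.2 in EpiRE, ZT12.9 in RERE and ZT14.8 in WT, and the difference was called for 12 genes in BRE against WT, 1 in EpiRE against WT (Dbf4, named after its values were seen) and 0 in RERE against WT (limma; 4 at an unadjusted p under 0.05). Of 21 further genes of the fork and of histone supply, 10 were called in BRE, 5 in EpiRE, 6 in RERE and 16 in WT. Ssrp1, a subunit of the histone chaperone FACT, was called in BRE (0.30 ± 0.06 log2, ZT1.55) and WT (0.36 ± 0.05 log2, ZT18.8). Of 12 genes of nucleotide supply, 9 were called in BRE, 5 in EpiRE, 4 in RERE and 11 in WT. Among them Rrm1, the large subunit of ribonucleotide reductase, peaked at ZT1.72 in BRE and ZT17.0 in WT, and Tyms, thymidylate synthase, was called in no genotype (adjusted p 0.26 to 0.769).

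Genes of G2 and mitosis act after replication is complete. Of 24 tested, 2 were called in BRE (Bub1 and Ttk, named after their values were seen; 11 at an unadjusted p under 0.05), 0 in EpiRE (limma; 0 at an unadjusted p under 0.05), 24 in RERE and 24 in WT. Their median peak was ZT22.9 in RERE and ZT22.5 in WT, later than the ZT13.3 and ZT15.2 of the called fork genes in the same mice. Top2a, the topoisomerase that untangles finished chromosomes, varied by 0.65 ± 0.24 log2 in BRE (adjusted p = 0.136), 0.17 ± 0.25 in EpiRE (adjusted p = 0.925), 1.37 ± 0.23 in RERE (adjusted p = 0.0013) and 1.72 ± 0.18 in WT (adjusted p = 1.7e-06). The mitotic rhythms differed in EpiRE against WT for 23 of 24 genes, where 10 of 41 fork genes did (8.51% of all tested genes). In RERE against EpiRE they differed for 20 of 24, where 1 of 41 fork genes did (4.04% of all tested genes). The 2 gene sets were not tested against each other. Their rhythms differ in size, with a median in WT of 1.56 log2 for the mitotic and 0.76 log2 for the fork genes, so such counts are not directly comparable.

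The authors' deposited tables give a second reading of the same mice. In the authors' deposited table of JTK_CYCLE, a rank test for rhythms, q was below 0.05 for 14 of 41 fork genes in BRE (5.67% of all tested genes), 6 in EpiRE (0.156%), 17 in RERE (8.52%) and 38 in WT (20.8%). In the authors' deposited table of BIOCYCLE, a trained classifier, it was for 0 in BRE (0.0% of all genes), 0 in EpiRE (0.0%), 8 in RERE (1.56%) and 9 in WT (10.0%). The smallest BIOCYCLE q of a fork gene in the authors' deposited table was 0.115 in BRE, 0.267 in EpiRE, 0.0139 in RERE and 0.0234 in WT. The median JTK_CYCLE peak of the fork genes that passed was 2.0 h in BRE, 14 h in EpiRE, 14 h in RERE and 16 h in WT in the authors' deposited table.

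The mice of the highest and of the lowest time did not overlap for 20 of 41 fork genes in BRE (43.6% of all tested genes), 25 in EpiRE (32.1%), 29 in RERE (37.7%) and 39 in WT (52.7%). The times were chosen per gene by their means, so these counts, and the separations described for single genes above, are no test. The BRE count was close to the share over all genes and says nothing particular about the fork genes. The highest time was ZT0 or ZT4 for 38 of the BRE genes, ZT12 or ZT16 for 39 of the EpiRE genes and 39 of the RERE genes, and ZT12, ZT16 or ZT20 for all 41 WT genes. The lowest time was ZT12 or ZT16 for 38 of the BRE genes and ZT4 for 32 of the WT genes, while EpiRE and RERE genes had it at several times between ZT20 and ZT8.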

How the data were processed

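Polyadenylated RNA of 96 mice was sequenced as stranded libraries. Per the submitters' processing notes the authors used Trimmomatic 0.36, HISAT2 2.2.1, SAMtools 1.3.1, featureCounts 1.6.0 and edgeR (version not given in the sources used here) with build mm10. The deposited values are log2 RPKM, 1 table per genotype. No label names the unit: the scale, a prior count of 2 and the depth of each library were inferred from the values. The deposited q-values (adjusted p-values) and peak hours are those of JTK_CYCLE and BIOCYCLE as the authors ran them, and 96 columns of per-sample values in the JTK_CYCLE tables were not used.

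The members, gene lists and tests were chosen with earlier results of these data known. Genes that averaged 1 RPKM or more were fitted with limma 3.58.1 in R 4.3.3 (cosine and sine of 24 h per genotype, trended variance moderation), and p-values were adjusted over all 12144 genes. Comparisons fit 48 mice of both genotypes, each with its own mean. The fit was run on simulated data with noise drawn separately for each gene, no rhythm added in EpiRE and the same rhythm in RERE and WT. That simulation cannot gauge how well EpiRE rhythms or differences between RERE and WT are found, nor the effect of movement shared between genes. Its outcome is not given here. Alternatives were median-of-ratios rescaling, no filter, a filter at 5 RPKM, log2(RPKM + 1), 2 other variance settings, time as a factor, a replicate block, and omission of each replicate number or library. Genes given in full are, per role, the most abundant member, that with the largest WT rhythm and any that goes against its role, with the 2 smallest adjusted p of each comparison and the untested member. The 3 most abundant genes of each other pathway list are the ones eligible to be named. Each mouse gave 1 library, so p-values rest on the spread of mice around the fitted cosine. That spread also holds any departure of the time means from a cosine.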

Additional observations from a re-analysis of the deposited data

Results flagged for a closer look

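A single mouse stood far from the other 3 of its group in 10 of 232 groups checked (Dixon's ratio of the gap to the whole range), and chance alone is expected to mark about 1 group in 20. The mean of the 41 fork genes at WT ZT20 had a ratio of 0.882, with 0.26, 0.26, 0.24 and 0.09 log2. Among single genes the ratio was 0.845 for Rfc4 at BRE ZT12 (4.54, 3.38, 4.36 and 4.46 RPKM), 0.831 for Pole at EpiRE ZT20 (2.16, 2.01, 1.27 and 2.16 RPKM) and 0.888 for Rfc3 at EpiRE ZT0 (7.40, 7.33, 5.61 and 7.20 RPKM). It was 0.857 for Rnaseh2b at EpiRE ZT16 (17.0, 16.4, 12.8 and 16.8 RPKM), where the third mouse was low. At RERE ZT12 the fourth mouse was high for Pole (ratio 0.834), Pcna (0.837, at 111 RPKM) and Timeless (0.877, with 3.94, 4.07, 3.91 and 5.21 RPKM). Gins4 at RERE ZT4 had a ratio of 0.952 (10.5, 10.6, 10.5 and 12.6 RPKM) and Rnaseh2c at WT ZT16 one of 0.905.

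Rhythms differed between genotypes, by the test of the difference itself, for 38 of 41 fork genes in BRE against WT (20.2% of all tested genes), 10 in EpiRE against WT (8.51%), 37 in RERE against BRE (4.79%), 1 in RERE against EpiRE (4.04%) and 37 in EpiRE against BRE (13.9%). The 1 gene of RERE against EpiRE is 2.44% of the fork genes, below the share of all genes.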

How the results depend on the processing

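Counts of called fork genes varied with the processing, and peak times moved when a replicate number was left out. Over these omissions the median peak of the tested genes ran from ZT0.797 to ZT1.52 in BRE and from ZT12.1 to ZT13.7 in EpiRE. It ran from ZT13.1 to ZT14.1 in RERE and from ZT14.9 to ZT15.6 in WT. With a filter at 5 RPKM, which leaves 25 of the genes, 19 were called in BRE, 15 in EpiRE, 18 in RERE and 23 in WT, and differences for 22 (BRE against WT), 4 (EpiRE against WT), 22 (RERE against BRE) and 21 (EpiRE against BRE). Without a filter 16 were called in EpiRE. With time as a factor 18 were called in BRE, 6 in EpiRE, 4 for EpiRE against WT and 0 for RERE against EpiRE. After median-of-ratios rescaling 6 were called for EpiRE against WT. Without each replicate number in turn the counts ranged from 4 to 33 in BRE, 0 to 20 in EpiRE, 13 to 24 in RERE and 36 to 40 in WT. For differences they ranged from 36 to 39 (BRE against WT), 0 to 9 (EpiRE against WT), 0 to 0 (RERE against WT), 24 to 36 (RERE against BRE), 0 to 1 (RERE against EpiRE) and 32 to 37 (EpiRE against BRE). Without each single library in turn they ranged from 23 to 35 in BRE, 16 to 31 in EpiRE, 24 to 34 in RERE and 39 to 40 in WT, and for differences from 38 to 40, 6 to 12, 0 to 1, 34 to 38, 1 to 2 and 37 to 38 in the same order of pairs. Apart from the smaller gene set or sample number, the cause was not tested. How many of all tested genes were called in each setting is not given here. No called rhythm or difference turned direction, which here means a move of its fitted peak by over 6 h (single-library omissions were not checked for this). Each result had 476 values over the 41 genes, called and not called together. Of these 17 turned for RERE against EpiRE, 1 each in BRE, in EpiRE and for EpiRE against BRE, EpiRE against WT and RERE against WT, and 0 elsewhere. All that turned belonged to rhythms or differences that were not called.

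Replicate numbers name separate mice, and no label says what a number shares. Residuals of same-numbered mice over all tested genes had a median r of -0.00867 in BRE, -0.0208 in EpiRE, 0.00623 in RERE and -0.0112 in WT (60 pairs each). Single pairs ranged widely, from -0.411 to 0.381 in RERE. Such a median cannot show that a number shares nothing, so pairing was not settled. With a replicate block 32 genes were called in BRE, 16 in EpiRE, 31 in RERE and 39 in WT. Without it the counts were 32, 26, 30 and 39.

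Of these, the turned values of genes given by name were as follows. Without replicate 2 the size was 0.10 for Rnaseh2c in BRE, and 0.07 for Pcna, 0.04 for Rfc4 and 0.06 for Rpa1 in RERE against EpiRE. Without replicate 3 it was 0.03 for Rpa3 in EpiRE, 0.30 for Gins2 in EpiRE against WT and 0.03 for Topbp1 in RERE against EpiRE. Without replicate 4 it was 0.07 for Chaf1b, 0.15 for Pcna, 0.18 for Rfc3, 0.05 for Rfc4 and 0.07 for Rpa1 in RERE against EpiRE (log2). Over all 4 omissions the size ranged from 0.10 to 0.21 for Rnaseh2c in BRE, 0.03 to 0.08 for Rpa3 in EpiRE and 0.11 to 0.43 for Gins2 in EpiRE against WT, and in RERE against EpiRE from 0.07 to 0.38 for Chaf1b, 0.07 to 0.27 for Pcna, 0.07 to 0.21 for Rfc3, 0.04 to 0.13 for Rfc4, 0.03 to 0.15 for Rpa1 and 0.03 to 0.25 for Topbp1.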
